A study of Mus musculus with 28 samples.

Results

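Translation initiation and elongation factors were examined here as mRNAs that are themselves held by ribosomes in the axons of retinal ganglion cells (RGCs). Members were the genes whose symbols begin with Eif followed by a digit from 1 to 6, which takes in the Eif4ebp genes, or with Eef followed by 1 or 2. This rule gave 63 of the 23995 genes listed. Axon-TRAP (translating ribosome affinity purification from axons) used C57BL/6 mice that carry the RiboTag allele, in which Cre switches the ribosomal protein gene Rpl22 to an HA-tagged form, crossed with Pax6-alpha-Cre mice. This Cre line is active in progenitors of the peripheral retina, so that tagged ribosomes in the superior colliculus (SC), the midbrain target of RGC axons, are those of axons.

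The HA immunoprecipitate was sequenced from Cre-positive SC, from Cre-negative SC of littermates that carry no tagged ribosome, and from retina of Cre-positive animals, each at 4 stages, the embryonic stage E17.5, the postnatal stages P0.5 and P7.5, and adult. All 12 groups had 2 replicates, each made from tissue pooled over animals. The labels call the last source retina, whereas the study's methods describe homogenised eyes, and lens crystallin mRNAs were present there (6 genes, summed FPKM from 3.38 to 998 over the retina libraries). Values are FPKM, the authors' estimate of mRNA abundance, in which fragments are scaled to transcript length and to library size. In addition, 4 adult libraries, 1 for each condition, counted reads with and without ribosome run-off in Cre-positive SC and in retina.

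Protein synthesis begins when eIF4F, made of the cap-binding protein eIF4E, the scaffold eIF4G and the helicase eIF4A, brings an mRNA to a small ribosomal subunit loaded with eIF3, eIF1, eIF1A, eIF5 and the initiator tRNA carried by eIF2. The exchange factor eIF2B recharges eIF2, and kinases that phosphorylate eIF2 restrain it. The eIF4E-binding proteins, which are targets of mTORC1, keep eIF4E from eIF4G. Elongation then depends on eEF1A, which delivers aminoacyl-tRNA, on the eEF1B exchange complex and on eEF2, which moves the ribosome along the mRNA. In neurons the mRNAs of many of these factors are known to be present outside the cell body.

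Depth and quality differed between libraries. The number of genes above 0 FPKM ranged from 1159 in replicate 2 of adult Cre-negative SC to 8765 in replicate 2 of E17.5 retina, and 2 retina libraries were poor in genes, replicate 1 of P7.5 (4310) and replicate 1 of the adult (2080). From the smallest values of genes with a single transcript, the libraries held an estimated 468690 to 13870195 fragments, with the 4 adult SC libraries between 552682 and 2158580. The lowest estimate was for replicate 1 of E17.5 Cre-negative SC, where a single fragment on a transcript of 1500 bases is worth 1.42 FPKM. Many genes that are needed by every cell were listed at 0 FPKM in some libraries, so an FPKM of 0 is given below as the listed value and not as absence. Of the RGC markers fixed for the study, Rbpms was at 0 in every SC library, and the summed FPKM of the 10 markers was 245 to 513 in Cre-positive and 330 to 940 in Cre-negative SC at P0.5. The largest terms of this sum were Pou4f1 and Gap43, which, like Pou4f2, overlapped between the sources. Slc17a6, at 12.2 and 5.13 FPKM in Cre-positive and 1.46 and 0.223 in Cre-negative SC, did not overlap. Nor did Nefl and Nefm, which were also higher in Cre-positive SC. No marker lay higher in both Cre-negative libraries than in both Cre-positive ones.

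Over all 24 FPKM libraries, 7 of the 63 members were listed at 0 FPKM throughout. These were Eef1a2 (the neuronal and muscle form of eEF1A), the eIF2 kinase genes Eif2ak2, Eif2ak3 and Eif2ak4, the eIF4E homologue Eif4e1b, Eif4ebp3 and Eif5a2. Another 6 never reached 1 FPKM, namely Eef2k (the kinase of eEF2), Eif2b3, Eif2s1, Eif2s3y, Eif3j2 and Eif4e3. The summed FPKM of all members was highest in the 2 libraries of P0.5 Cre-positive SC, at 4736 and 4253. In the 2 libraries of P0.5 Cre-negative SC it was 2067 and 1442, and in retina of that stage 1070 and 393. Cre-positive SC at P7.5 held 227 and 418, which is below the sum in each P0.5 SC library.

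**Figure D1:**
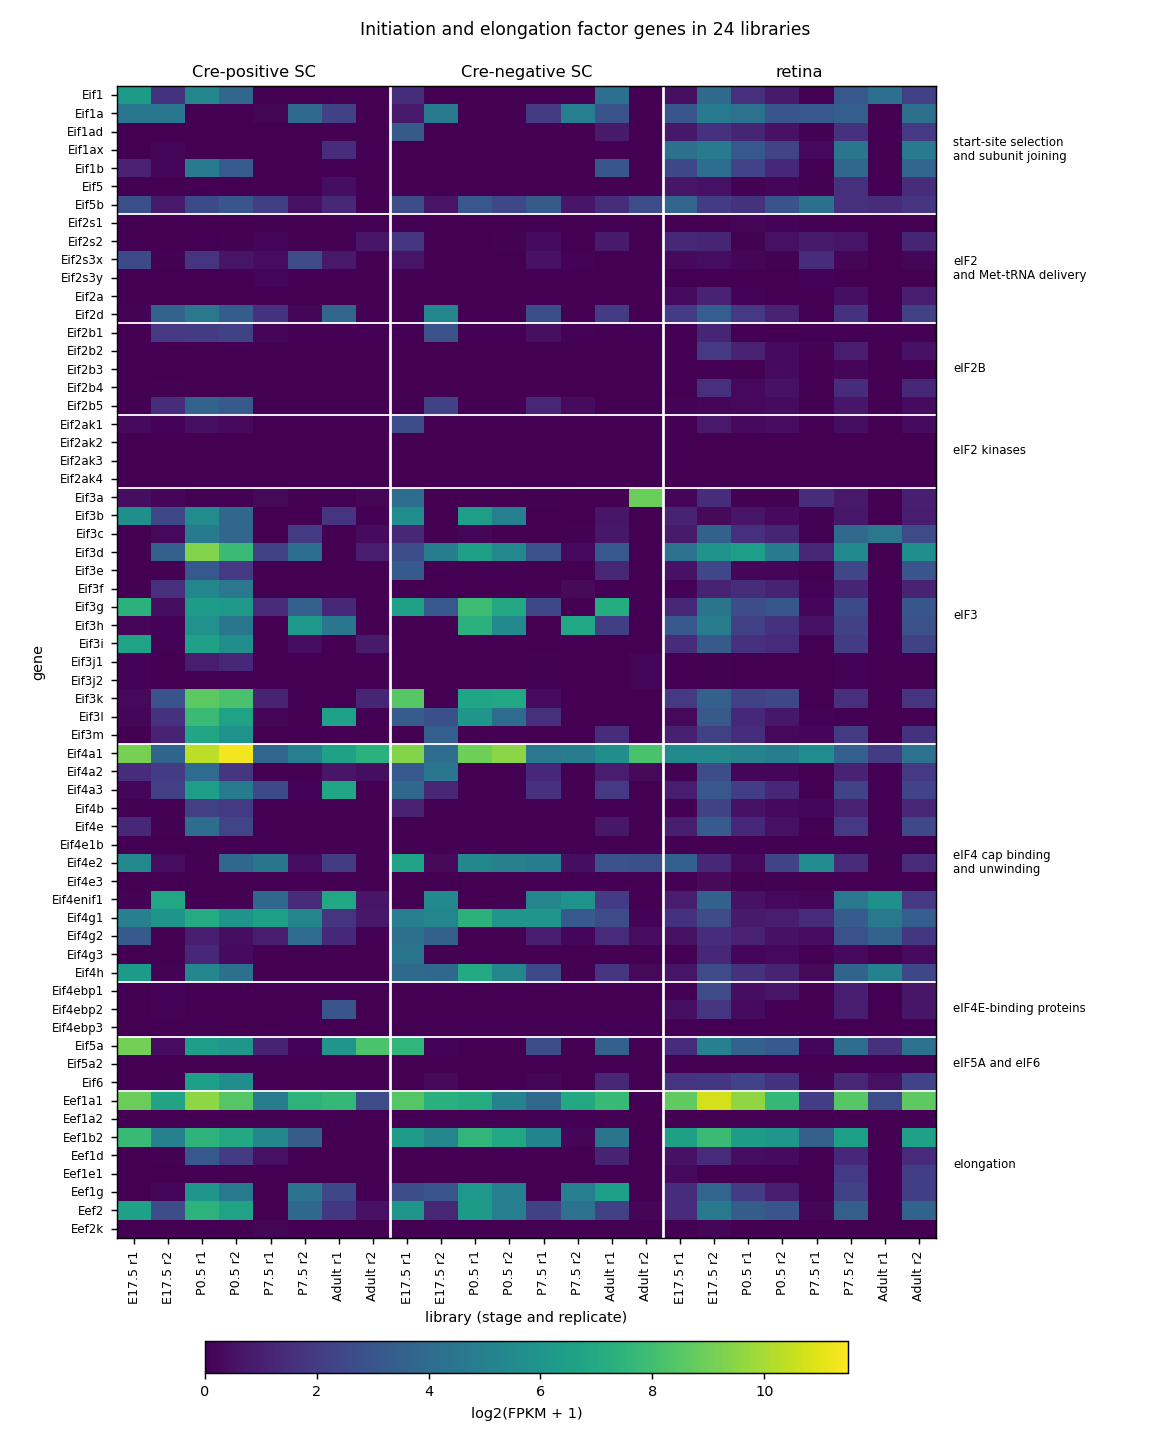
Levels of the 63 factor genes, in rows ordered by role, in the 24 FPKM libraries, in columns ordered by source, stage and replicate, with colour giving log2(FPKM + 1). The P0.5 Cre-positive SC columns are bright for most eIF3 genes, for Eif4a1 and for Eif6, while the 7 rows listed at 0 throughout are dark in every column.

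At P0.5, when RGC axons branch in the SC, 31 of the 63 members reached 1 FPKM in both Cre-positive SC libraries, which 14.9% of all genes did. The counts were 9 for E17.5, 7 for P7.5 and 3 for adults (background 4.78%, 4.06% and 2.97%). By role, the P0.5 libraries held 11 of 14 eIF3 genes at that level, 7 of 13 genes of the eIF4 group, 5 of 8 elongation factor genes, 3 of 7 genes of start-site selection and subunit joining, 2 of 5 eIF2B genes and both Eif5a and Eif6. Of the 6 genes grouped under eIF2 and delivery of the initiator tRNA, 1 did (Eif2d), and of the eIF2 kinases and eIF4E-binding proteins none did. The same rule was met in Cre-negative SC of P0.5 by 15 of the 63 members (23.8%, against 6.14% of all genes). In retina of that stage 20 members met it (31.7%, against 6.04%). Cre-negative SC of E17.5 held 13 such members, that of P7.5 held 6 and that of adults 3. A share of members above that of all genes was thus not confined to Cre-positive SC.

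Setting Cre-positive beside Cre-negative SC asks which mRNAs were recovered through tagged ribosomes rather than as background of the immunoprecipitation. With limma on log2(FPKM + 1), 13 of the 38 members that passed the filter on low values were higher in Cre-positive SC at P0.5 and 0 were lower, while 28.1% of 5983 genes tested were higher and 4.35% lower. The share of tested members that were higher, 34.2%, is near that of all genes. The median difference was 2.11 on the log2 scale over the 38 members and 0.78 over all genes tested. The 25 other members did not reach 1 FPKM in 2 SC libraries and had no test. Of the 38, 7 passed the filter only through the P0.5 Cre-positive libraries and so had to differ between the sources. These were Eif4g3 and 6 of the called members, Eef1d, Eif3f, Eif3i, Eif4b, Eif4e and Eif6, so the count and the median are a description and the p-values of these genes are not support for a difference. The 7 other called members, Eif1, Eif1b, Eif2b5, Eif3c, Eif3e, Eif3m and Eif4a2, reached 1 FPKM in at least 2 other SC libraries. Of these 7, only Eif3c and Eif3m kept their call under all 24 alternative settings. Without replicate 1 of P0.5 Cre-positive SC, 7 members were called.

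Eif6, whose protein binds the large ribosomal subunit and keeps it from joining the small subunit, had the smallest p among the members. The gene lies at chr2:155819832-155826925 on the minus strand of mm10 (GENCODE M21 annotation). It stood at 88.3 and 48.6 FPKM in the Cre-positive SC libraries of P0.5, at 0 and 0 in the Cre-negative ones and at 4.03 and 2.2 in retina. In the 14 other SC libraries it did not exceed 1.37 FPKM. The P0.5 difference was 6.06 ± 0.57 (SE) on the log2 scale (limma, adjusted p = 1.595e-05, n = 2 per group), in a gene that entered the test only through the libraries where it is high.

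The eIF3 genes fell into 2 patterns at P0.5. Eif3f (chr7:108934417-108942951, plus strand), a subunit of the MPN domain family, was at 37.3 and 22.6 FPKM in Cre-positive SC and at 0 in both Cre-negative libraries, a difference of 4.91 ± 0.55 (limma, adjusted p = 4.998e-05). Eif3m (chr2:104999656-105017080, minus strand) was at 108 and 59.4 FPKM against 0 and 0 (6.34 ± 1.03, adjusted p = 0.000705), and Eif3i at 94.3 and 50.7 against 0 and 0 (6.13 ± 1.56, adjusted p = 0.0112). Both libraries of each gene lay far above the background libraries.

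Eif3c was at 25.2 and 13.1 FPKM against 0.109 and 0 (4.19 ± 0.73, adjusted p = 0.00106), and Eif3e at 7.91 and 2.81 against 0 and 0 (2.54 ± 0.88, adjusted p = 0.0483). The call of Eif3e was lost under 20 of 24 alternatives. Eif3i was called at P0.5 although replicate 1 of E17.5 Cre-positive SC also held 96.8 FPKM of it.

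The other abundant eIF3 genes were present in Cre-negative SC of P0.5 as well. Eif3d was at 629 and 231 FPKM in Cre-positive and at 91.4 and 41.2 in Cre-negative SC, so the libraries did not overlap, but the difference of 2.62 ± 1.61 did not pass (adjusted p = 0.291). Eif3k was at 385 and 293 against 108 and 115, and Eif3l at 226 and 97.3 against 66.1 and 15.8. These too did not overlap and did not pass (adjusted p = 0.816 and 0.490).

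For Eif3g the Cre-negative libraries were the higher ones, at 241 and 122 FPKM against 77.5 and 73.5. Eif3h was at 161 and 43.1 FPKM in Cre-negative and 56.0 and 21.7 in Cre-positive SC, and Eif3b at 83.8 and 30.3 against 45.7 and 14, and in both genes the 2 sources overlapped. Eif3a, the largest scaffold subunit, was listed at 0 in all 4 SC libraries of P0.5. Eif3j1 was at 0.907 and 1.43 FPKM in Cre-positive SC and at 0 in Cre-negative SC of P0.5, and Eif3j2 at 0.00671 and 0.000984 and at 0, but these are near-identical copies between which reads cannot be assigned with certainty.

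**Figure D2:**
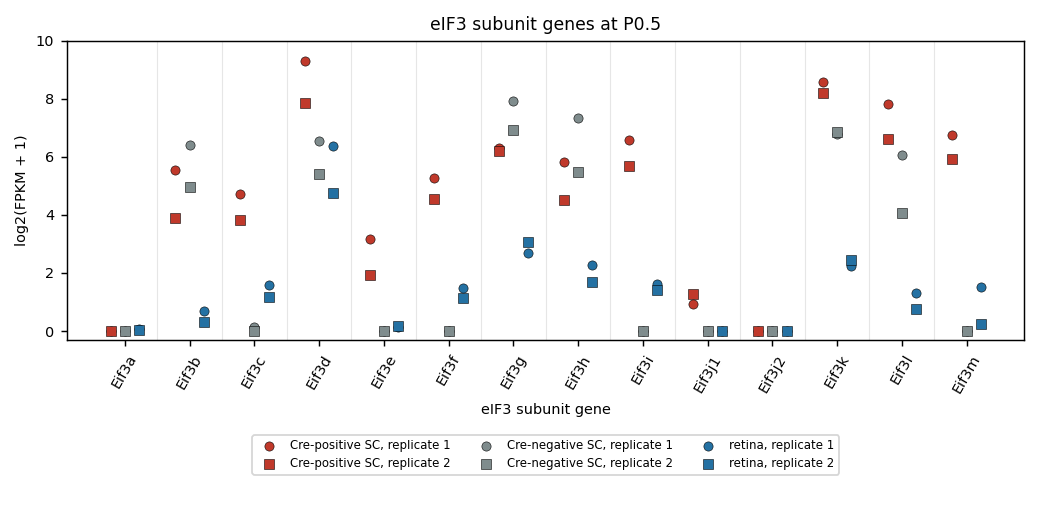
Log2(FPKM + 1) of the 14 eIF3 subunit genes, along the horizontal axis, in the 6 libraries of P0.5, with colour for the source and shape for the replicate. Eif3c, Eif3e, Eif3f, Eif3i and Eif3m lie well above 0 in Cre-positive SC and at or near 0 in Cre-negative SC, whereas Eif3b, Eif3d, Eif3g, Eif3h, Eif3k and Eif3l are present in both.

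The split of P0.5 members by their presence in background extended over the other roles. In all, 16 of the 63 members reached 1 FPKM in both Cre-positive SC libraries of P0.5 while being listed at 0 in both Cre-negative ones, against 7.13% of all genes, and 0 members met this rule at any other stage (E17.5, P7.5, adult: 0.288%, 0.0208% and 0.129% of all genes). The 16 were Eef1d, Eif1, Eif1b, Eif2b1, Eif2b5, Eif2d, Eif3e, Eif3f, Eif3i, Eif3m, Eif4a2, Eif4a3, Eif4b, Eif4e, Eif5a and Eif6. The Cre-negative libraries of P0.5 listed 2159 and 2545 genes above 0 FPKM and the Cre-positive ones 4617 and 4921, and how far this difference sets such counts was not tested.

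Among the cap-binding and unwinding factors, Eif4e (chr3:138526179-138559696, plus strand), the cap-binding protein itself, was at 16.3 and 4.28 FPKM in Cre-positive SC of P0.5 and at 0 in both Cre-negative libraries (3.26 ± 0.59, limma adjusted p = 0.00144). Eif4b, which stimulates the helicase, was at 3.57 and 2.89 FPKM against 0 and 0 (2.08 ± 0.34, adjusted p = 0.000659). Eif4a2, the helicase form known to be abundant in brain, was at 15.1 and 2.56 against 0 and 0 (2.92 ± 0.87, adjusted p = 0.0241). Within each of these genes the 2 Cre-positive replicates were unequal, and replicate 1 was the higher.

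Eif4a1 was the most abundant member of the P0.5 axonal libraries, at 1297 and 2479 FPKM. Its Cre-negative libraries held 501 and 724 FPKM, so that the sources did not overlap, but the difference of 1.57 ± 1.89 did not pass (adjusted p = 0.752). The scaffold gene Eif4g1 was at 133 and 60.1 FPKM in Cre-positive and 167 and 66.4 in Cre-negative SC. Its relatives Eif4g2 and Eif4g3 were at 0.958 and 0.356 and at 1.44 and 0.279 FPKM in Cre-positive SC and at 0 in Cre-negative SC. Eif4h was at 39.5 and 18.1 against 130 and 37.1, and Eif4e2, a cap-binding homologue, at 0.0454 and 13.4 against 40.7 and 31.1 FPKM. Neither of them passed the test (adjusted p = 0.789 and 0.454).

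Eif4a3, the helicase of the exon junction complex, was at 85.3 and 25.5 FPKM against 0 and 0 but missed the threshold (5.58 ± 1.98, adjusted p = 0.0539). In the adult it was at 107 and 0 FPKM in Cre-positive SC. Eif5a, which helps ribosomes past proline-rich stretches, was at 86.7 and 65.3 FPKM against 0 and 0 and also missed it (6.25 ± 2.87, adjusted p = 0.134). Its levels in the other SC libraries reached 551 FPKM, in replicate 1 of E17.5 Cre-positive SC.

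Of the start-site factors, Eif1b was at 26 and 8.92 FPKM in Cre-positive SC of P0.5 and at 0 in both Cre-negative libraries (4.03 ± 0.87, limma adjusted p = 0.00458). Eif1, its close paralogue, was at 38.1 and 13.0 against 0 and 0 (4.55 ± 1.55, adjusted p = 0.0460), a call lost under 14 of 24 alternatives. Eif5b, the GTPase of subunit joining, was at 4.98 and 7.23 against 7.76 and 4.53 FPKM, so that the sources overlapped. Eif1a and Eif5 were listed at 0 in all SC libraries of P0.5.

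The catalytic eIF2B subunit gene Eif2b5 was at 11.8 and 8.34 FPKM in Cre-positive SC and at 0 in both Cre-negative libraries (3.45 ± 0.75, limma adjusted p = 0.00459). Eif2b1 was at 3.15 and 3.81 against 0 and 0 but did not pass (2.16 ± 0.84, adjusted p = 0.0771). Eif2b2, Eif2b3 and Eif2b4 were listed at 0 in all 4 libraries. Of eIF2 itself, Eif2s3x was at 2.35 and 0.583 FPKM and Eif2s2 at 0 and 0.0472 in Cre-positive SC, and Eif2s1 was at 0.

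Elongation factor mRNAs were mostly shared with background. Eef1d, a subunit of the exchange complex, was the only member of this group called at P0.5, at 8.07 and 2.97 FPKM against 0 and 0 (2.58 ± 0.47, limma adjusted p = 0.00148). Eef1a1 was at 745 and 354 FPKM against 137 and 33.2, and Eef2 at 173 and 97.0 against 76.5 and 30.3. Neither overlapped between the sources, and neither passed (adjusted p = 0.5 and 0.827).

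Eef1b2 was at 177 and 122 FPKM in Cre-positive and 187 and 119 in Cre-negative SC, and Eef1g at 63.8 and 23.8 against 68.3 and 30.0. The sources overlapped in both genes. The plot of differences at P0.5 sets these genes beside the called ones.

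**Figure D3:**
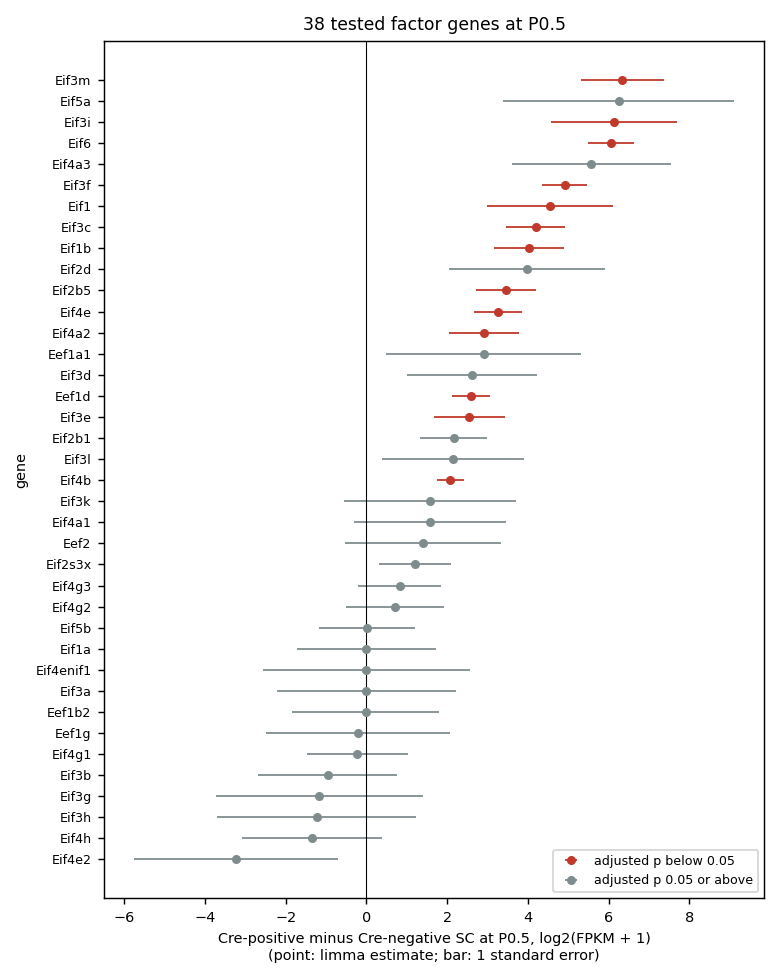
Difference between Cre-positive and Cre-negative SC at P0.5 for the 38 tested members, on the log2(FPKM + 1) scale, with points for the limma estimate and bars for 1 standard error, from 2 libraries a group. The 13 red members passed an adjusted p of 0.05 and all lie to the right of 0, from Eif4b at 2.08 to Eif3m at 6.34.

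At the other stages no member was called between Cre-positive and Cre-negative SC. With limma, 0 of 38 members passed at E17.5 (1 at an unadjusted p under 0.05, lower in Cre-positive SC; background 0.468% higher and 1.1% lower), 0 at P7.5 (0 unadjusted; background 0%) and 0 in the adult (0 unadjusted; background 0.0836% higher and 0.0669% lower). Averaged over the 4 stages, Eif3f and Eif6 were higher in Cre-positive SC (2 of 38, background 10.1%, and 0 lower, background 2.24%), with differences of 1.39 ± 0.28 (limma adjusted p = 0.00966) and 1.32 ± 0.28 (adjusted p = 0.0136), and both calls were lost without either Cre-positive library of P0.5. Both genes passed the filter only through the P0.5 Cre-positive libraries, so their p-values are not support for a difference. A difference that missed the threshold in these stages, which have 2 libraries a group of unequal depth, does not show that axons lacked the mRNA.

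Markers of other cells were read in the same libraries. The 3 inhibitory neuron markers were at 0 in all 4 SC libraries. Of 6 oligodendrocyte markers only Cnp was above 0, with a summed FPKM of 84.7 to 86.6 in Cre-positive and 48.1 to 86.2 in Cre-negative SC, and the 6 astrocyte markers summed to 40.0 to 47.4 and 15.9 to 38.3. Their part in the differences of the factor genes was not tested. In bulk samples, fewer cells of a type and less RNA per cell cannot be told apart.

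Sequence around the start site was read next. Many mRNAs of the translation machinery are known to begin with a run of pyrimidines at the cap, through which mTORC1 regulates them. A run of at least 8 pyrimidines that opens with a C was searched on the sense strand within 15 bases on either side of the RefSeq start sites of GRCm38.p6. Such a run was found for 9 of the 49 members with a RefSeq entry (18.4%) and for 10.8% of all 27025 genes. It was found for 3 of the 9 called members with an entry and for 6 of the 40 other members. These 3 windows are shown with the run in capitals, as the called members that carry it.
Eif3f (chr7:108934400-108934429, plus strand): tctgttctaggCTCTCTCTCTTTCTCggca
Eif2b5 (chr16:20498802-20498831, plus strand): CCTTCCTCTTTCTCTCCCTgcaactacacc
Eif4e (chr3:138527253-138527282, plus strand): tcgCCCCCCCTTCaggagcggttgtgcgat
In Eif3f the run spans the annotated start and is 15 bases long, and in Eif2b5 it is 19 bases long, most of it before the start. The Eif4e window belongs to 1 of its annotated starts and the run lies before it. Which start sites the axonal mRNAs used was not tested, and a match describes the annotated sequence only.

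Between stages, part of the factor mRNAs differed in Cre-positive SC. Within Cre-positive SC, 12 of the 38 tested members were higher at P0.5 than at E17.5 and 0 were lower (background 25.1% higher and 1.81% lower), with a median difference of 2.22 over the members and 0.69 over all genes. From P0.5 to P7.5, 16 members were lower and 0 higher (background 29.2% lower and 0.501% higher), with medians of -3.19 and -1.20. Both comparisons share the P0.5 libraries with each other and with the comparison of Cre, so their calls are not independent of those above. Eef1d, Eif3f, Eif4b, Eif4e and Eif6, called in both, passed the filter on low values only through the P0.5 Cre-positive libraries. So did Eif3i, called from P0.5 to P7.5, and Eif4g3, which was not called. Stage differences of these genes were fixed in part by the filter, so the counts and medians are a description. The p-values of these genes are not support for a difference.

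Of the 12 members that rose from E17.5 to P0.5, 6 encode eIF3 subunits. Eif3d went from 0 and 10.5 FPKM at E17.5 to 629 and 231 at P0.5 (6.81 ± 1.61, limma adjusted p = 0.00851), Eif3l from 0.151 and 2.26 to 226 and 97.3 (6.27 ± 1.76, adjusted p = 0.0217) and Eif3k from 0.172 and 6.35 to 385 and 293 (6.84 ± 2.13, adjusted p = 0.0355). In Cre-negative SC the differences of Eif3d, Eif3l and Eif3k were 2.18 ± 1.61, 2.01 ± 1.76 and 2.55 ± 2.13 (limma adjusted p = 0.488, 0.575 and 0.553). Their stage changes were not shown to differ between the sources (limma interaction, adjusted p = 0.182, 0.280 and 0.387). The others of this complex were Eif3c (4.15 ± 0.73), Eif3f (4.14 ± 0.55) and Eif3m (5.78 ± 1.03). Eif3g was at 169 and 0.351 FPKM at E17.5 and at 77.5 and 73.5 at P0.5, so that the stages overlapped.

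The remaining risers were Eef1d (2.55 ± 0.47), Eif1b (3.44 ± 0.87), Eif2b5 (2.70 ± 0.75), Eif4b (2.05 ± 0.34), Eif4e (2.56 ± 0.59) and Eif6 (6.02 ± 0.57, limma adjusted p = 1.838e-05). Without replicate 1 of P0.5 Cre-positive SC, 3 members were called in place of 12. The 2 E17.5 Cre-positive libraries were themselves unlike each other, with a summed member FPKM of 2478 and 412.

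Many of the genes that fell from P0.5 to P7.5 were listed at 0 at the later stage. Eif3f, Eif3m, Eif6, Eif4e, Eif4b and Eif1b had 0 FPKM in both P7.5 Cre-positive libraries, and so did Eif1, Eif2b5 and Eif4a2. Their differences ranged from -2.08 (Eif4b, adjusted p = 0.000731) to -6.34 (Eif3m, adjusted p = 0.000789) on the log2 scale. These 2 P7.5 libraries had an estimated 10597074 and 10227916 fragments and listed 3642 and 2930 genes above 0 FPKM. The P0.5 Cre-positive libraries had an estimated 6067604 and 8375195 fragments and listed 4617 and 4921 genes. The part of depth and of library quality in these values of 0 was not tested.

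Eif4a1 fell from 1297 and 2479 FPKM at P0.5 to 12.4 and 29.6 at P7.5 (-6.47 ± 1.89, limma adjusted p = 0.0250), and Eif3k from 385 and 293 to 1.19 and 0 (-7.83 ± 2.13, adjusted p = 0.0176), the largest fitted change of a member in this comparison. In Cre-negative SC, Eif3k was at 108 and 115 and then at 0.260 and 0 FPKM (-6.65 ± 2.13, adjusted p = 0.141), and its stage change was not shown to differ between the sources (-1.19 ± 3.01, adjusted p = 0.959). There Eif4a1 was at 501 and 724 and then at 22.3 and 28.5 FPKM, a difference that did not pass (-4.52 ± 1.89, adjusted p = 0.309). For this gene too the difference of the stage changes did not pass (-1.95 ± 2.68, adjusted p = 0.786). Without replicate 1 of P0.5 Cre-positive SC, 5 members were called in this comparison. Without replicate 2 of that group there were 10, and without either P7.5 Cre-positive library 9.

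Other members had other courses. Eif4g1 kept a level of 92.7 and 37.1 FPKM in P7.5 Cre-positive SC, near the 133 and 60.1 of P0.5, and then stood at 2.42 and 0.695 in the adult (-4.63 ± 1.25, limma adjusted p = 0.886). In Cre-negative SC it was at 167 and 66.4 FPKM at P0.5, 62.8 and 8.13 at P7.5 and 5.13 and 0.0847 in the adult. Its stage changes were not shown to differ between the sources (1.54 ± 1.77 from P0.5 to P7.5 and -1.41 ± 1.77 from P7.5 to the adult). Eif4enif1, the eIF4E transporter that brings eIF4E to the nucleus and to processing bodies, was listed at 0 in all 4 SC libraries of P0.5 and was at 13.8 and 1.75 FPKM in P7.5 Cre-positive SC. Its P7.5 Cre-negative libraries held more, 37.3 and 57.2 FPKM. Eif1a was at 21.7 and 21.6 FPKM in the E17.5 Cre-positive libraries, at 0.717 and 24.3 in the Cre-negative ones, and at 0 in all SC libraries of P0.5.

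From P7.5 to the adult 0 of 38 members were called in Cre-positive SC (limma, background 0.0836% higher and 0% lower). At an unadjusted p under 0.05, 1 member was higher and 2 lower, while 57 of the 5983 genes tested were higher and 71 lower. Between the perinatal stages (E17.5 and P0.5) and the later ones (P7.5 and adult), 16 members were lower and 0 higher (background 25.8% lower and 0.719% higher). Among the 16 were Eef1d, Eif3f, Eif3i, Eif4b, Eif4e and Eif6, which passed the filter only through the P0.5 Cre-positive libraries. The count is thus a description. Here Eef1b2 joined the called genes, at 215, 31.5, 177 and 122 FPKM perinatally against 38.4, 9.05, 0 and 0 later (-4.64 ± 1.29, adjusted p = 0.0232), and so did Eef2, at 94.9, 5.64, 173 and 97.0 against 0, 13.9, 2.60 and 0.497 (-4.26 ± 1.37, adjusted p = 0.0420). In Cre-negative SC the same differences were -4.06 ± 1.29 for Eef1b2 and -2.40 ± 1.37 for Eef2 (adjusted p = 0.125 and 0.543), and the stage changes of these genes were not shown to differ between the sources (adjusted p = 0.930 and 0.684). Without replicate 1 of P0.5 Cre-positive SC only 2 members were called, and without replicate 2 there were 6. Leaving out either P7.5 or either adult Cre-positive library left 8 to 10.

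In Cre-negative SC, which carries the background of the same tissue, 1 member was called between stages. Eif4a2 fell from 7.95 and 22.1 FPKM at E17.5 to 0 and 0 at P0.5 (-3.85 ± 0.87, limma adjusted p = 0.0235; 1 of 38, with 0 higher, background 2.41% lower and 3.98% higher), and leaving out any SC library of P0.5 ended this call. From P0.5 to P7.5, 0 members passed in Cre-negative SC (background 0.234% higher and 4.6% lower). At an unadjusted p under 0.05, 8 of the 38 members were lower and 0 higher, while 591 of the 5983 genes tested were lower and 214 higher. Eif3b was first among these 8 members, with 83.8 and 30.3 FPKM followed by 0 and 0 (-5.69 ± 1.72, limma adjusted p = 0.112). The 7 others were Eef1b2, Eif3d, Eif3g, Eif3k, Eif3l, Eif4a1 and Eif4h. Eif3h, in contrast, was at 0 and 113 FPKM in Cre-negative SC of P7.5. From P7.5 to the adult 0 members were called (background 0.0501% higher and 0% lower). At an unadjusted p under 0.05, 1 member was lower and 0 higher, while 169 of the 5983 genes were lower and 89 higher. Between the perinatal and the later stages 0 were called in Cre-negative SC by limma (background 0.217% higher and 4.78% lower). At an unadjusted p under 0.05, 7 members were lower and 0 higher, while 754 of the 5983 genes were lower and 111 higher.

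The interaction of stage with Cre compares the stage change of Cre-positive SC with that of its background. From E17.5 to P0.5 it was positive for 10 of 38 members and negative for 0 (background 23.9% positive and 3.23% negative), and from P0.5 to P7.5 negative for 9 and positive for 0 (background 18.7% negative and 2.74% positive). Between the perinatal and the later stages it was negative for 4, Eif1b, Eif3f, Eif4e and Eif6, and positive for 0 (background 11.6% and 2.24%), and without either P0.5 Cre-positive library for 0. Eef1d, Eif3f, Eif4b, Eif4e and Eif6 entered the fit only through the P0.5 Cre-positive libraries, so their p-values are not support for a difference. Eif6 had the smallest p of the members in the first pair, 6.15 ± 0.81 (limma adjusted p = 0.000343) and -6.13 ± 0.81 (adjusted p = 0.000388). Without replicate 1 of P0.5 Cre-positive SC the first counts were 2 and 1, and without either Cre-negative library of P0.5 they were 6 and 4. The second count was 3 without replicate 2 of P0.5 Cre-positive SC and 5 without replicate 1 of P7.5 Cre-negative SC.

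In retina, Eef1a1, the most abundant member of E17.5 and P0.5 retina, was at 412 and 1737 FPKM at E17.5, 769.6 and 199 at P0.5, 3.32 and 369 at P7.5 and 5.22 and 397 in the adult. At the later stages the low value was in each case that of the replicate poor in genes. No member was called between consecutive stages (limma, 0 of 40, background 0%, 0.0245% and 0% higher and 0%, 0.049% and 0% lower). At an unadjusted p under 0.05, 1 of the 40 members was lower from P0.5 to P7.5 and 0 higher, while 52 of 4080 genes were lower and 47 higher. Between the perinatal and the later stages Eef1a1 was lower (-3.69 ± 0.95, adjusted p = 0.0180; 1 of 40, with 0 higher, background 0.735% lower and 0.221% higher), a call that was lost under 9 of 15 alternatives, among them leaving out the 2 libraries poor in genes or either of them.

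Several members were listed above 0 FPKM in retina and not, or hardly, in Cre-positive SC. Eif1ax was at 17.8 and 24.9 FPKM in E17.5 retina, 8.03 and 4.05 at P0.5, 0.169 and 22.1 at P7.5 and 0 and 24.9 in the adult, while the 16 SC libraries reached at most 1.73. Eif4ebp1, the eIF4E-binding protein gene, was above 0 in retina libraries of every stage, up to 5.38 FPKM at E17.5, and in a single SC library at 0.0973. Eef1e1 was in 3 retina libraries, up to 3.44 FPKM, and in no SC library. Both retina libraries lay above both Cre-positive SC libraries at P0.5 for 11 of the 63 members and 15.3% of all genes. The reverse held for 33 members. At E17.5, P7.5 and adult, retina lay above for 23.8%, 20.6% and 11.1% of members (all genes 10.1%, 6.49% and 4.28%). The reverse held there for 2, 1 and 2 members. Retina of P0.5 listed 8141 and 8448 genes above 0 FPKM and Cre-positive SC 4617 and 4921. How far this sets such shares was not tested.

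Axons and retina were compared at each stage in 1 fit of all 24 libraries. At P0.5, 13 of 46 tested members were higher in Cre-positive SC than in retina and 0 lower (background 26.4% and 1.49%), with a median difference of 2.36 over the members and 0.33 over all genes. Eif4g1 was at 133 and 60.1 FPKM in axons and at 0.805 and 0.879 in retina (5.62 ± 1.24, limma adjusted p = 0.00246). Eif4a1 was at 1297 and 2479 against 34.7 and 27.1 (5.82 ± 1.71, adjusted p = 0.0169), but both genes were abundant in Cre-negative SC too, and a Cre-negative retina was not analysed here.

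Of the eIF3 genes, Eif3b, Eif3f, Eif3i, Eif3k, Eif3l and Eif3m were higher in Cre-positive SC than in retina at P0.5. Of these, Eif3b, Eif3k and Eif3l were also abundant in Cre-negative SC, as given above, and Eif3b was there at 83.8 and 30.3 FPKM against 45.7 and 14 in Cre-positive SC. Eif3f was at 37.3 and 22.6 against 1.79 and 1.23 FPKM (3.59 ± 0.65, adjusted p = 0.000461), and Eif3m at 108 and 59.4 against 1.86 and 0.171 (5.47 ± 1.07, adjusted p = 0.000916). The other members called were Eif6, Eif2b5, Eif2b1, Eef1d and Eif4a2. In turn, Eif1ax was at 8.03 and 4.05 FPKM in retina and 0 and 0 in axons.

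The number called at P0.5 depended on settings. With a pseudocount of 0.1 it was 5, without replicate 1 or 2 of P0.5 Cre-positive SC it was 4 or 8, and without replicate 1 or 2 of P0.5 retina 6 or 5. At the 3 other stages, E17.5, P7.5 and adult, 0 members were called (limma, background of 0.459%, 0% and 0.0973% higher and 0.862%, 0% and 0% lower in axons). At an unadjusted p under 0.05, 2, 1 and 1 of the 46 members were higher and 3, 0 and 3 lower. Of all 7193 genes tested, 323, 131 and 178 were higher and 397, 81 and 382 lower at that threshold.

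**Figure D4:**
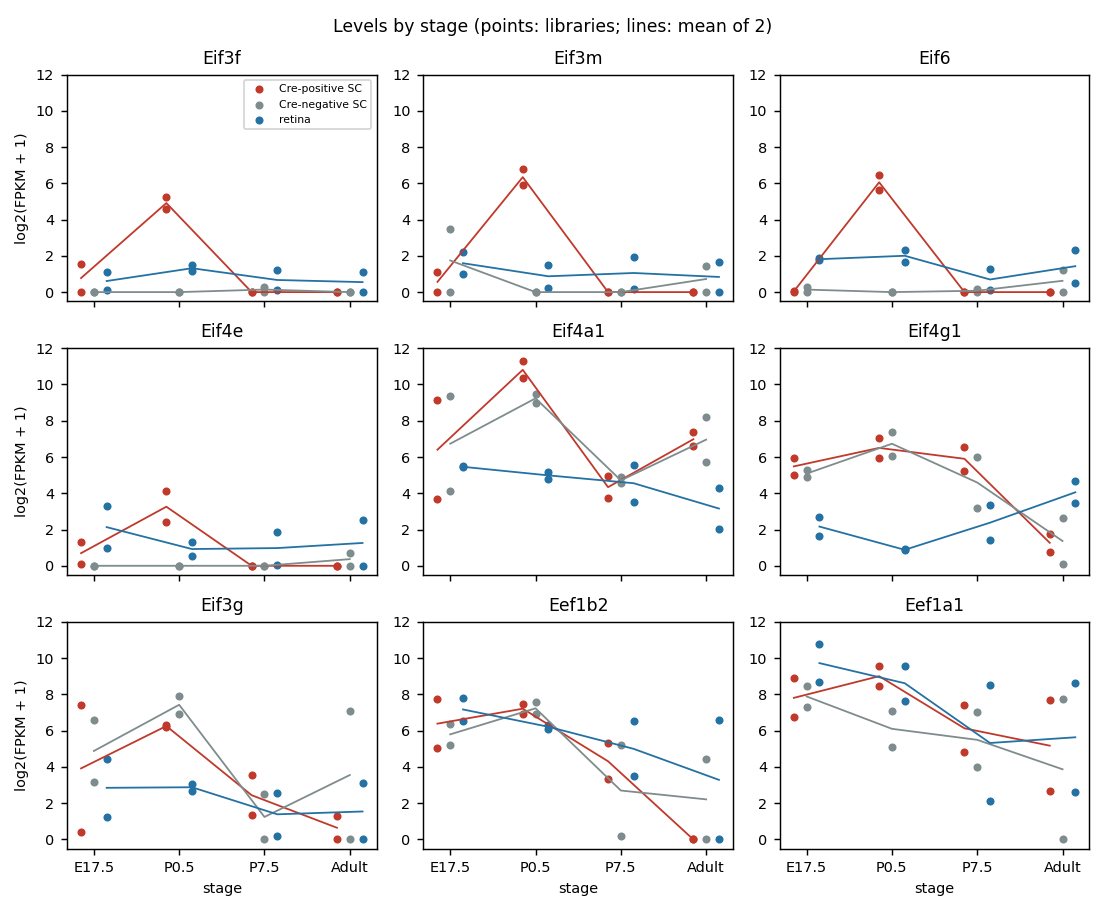
Log2(FPKM + 1) of 9 members by stage in SC of both Cre groups and in retina, with a point for each library and lines through the mean of 2. Eif3f, Eif3m, Eif6 and Eif4e peak in Cre-positive SC at P0.5 alone, Eif4a1, Eif4g1, Eif3g and Eef1b2 are present in both SC sources at E17.5 and P0.5, and Eef1a1 reaches 1737 FPKM in retina.

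Other genes of the pathway, a list of 28 with roles in termination, recycling, regulation and mitochondrial translation, was read beside the members at P0.5. Of the 16 that were tested, 5 were higher in Cre-positive than in Cre-negative SC and 1 was lower, where 28.1% of all genes were higher and 4.35% lower. Paip2, which inhibits the poly(A)-binding protein, was at 185 and 84.1 FPKM against 0.119 and 0 (6.89 ± 1.18, limma adjusted p = 0.000942). The termination factor Etf1 was at 9.10 and 5.42 against 0 and 0 (3.01 ± 0.48, adjusted p = 0.000620), and the recycling factor Abce1 at 8.67 and 2.64 against 0 and 0 (2.57 ± 0.43, adjusted p = 0.000831). The other 2 were the mitochondrial initiation factors Mtif2 and Mtif3, and the gene that was lower was Dhx29, a helicase of scanning (-3.03 ± 0.43, adjusted p = 0.000272). Etf1, Abce1, Mtif2 and Mtif3 passed the filter on low values only through the P0.5 Cre-positive libraries. Dhx29 passed it only through the Cre-negative libraries of P0.5. The p-values of these genes are not support for a difference, and the counts are a description.

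Within Cre-positive SC, 4 of these 16 genes rose from E17.5 to P0.5 and 5 fell from P0.5 to P7.5, with 0 in the opposite direction in each (25.1% and 29.2% of all genes). The 4 that rose were Etf1, Abce1, Mtif2 and Mtif3, which entered the SC fit only through the P0.5 Cre-positive libraries. Both counts are thus a description. Against retina at P0.5, 7 of 18 were higher in Cre-positive SC and 0 lower (26.4% and 1.49% of all genes).

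Run-off lets ribosomes that are elongating complete their protein and leave the mRNA, with new initiation blocked, before the immunoprecipitation. The question is which mRNAs lose reads in this way. The series holds no Cre-negative SC with run-off, and 0 of 38 members were called higher in adult Cre-positive than Cre-negative SC (background 0.0836%). Reads from axons and from background in the SC libraries thus cannot be told apart. Genes with a read numbered 5354 without and 2764 with run-off in SC, and 9159 and 3736 in retina. The study adjusted library input to the amount of cDNA, so reads were compared as counted, and with 1 library a condition there is no replicate check and no test. Intervals and floors below cover counting error only, since PCR reads are not independent molecules. In adult Cre-positive SC, members took 9277 of 3262914 reads without run-off and 799 of 349395 with it, 8.61% as many, while all genes together kept 10.7%. In retina they took 11012 of 4686284 and 1111 of 315009 reads, which was 10.1% as many against 6.72% for all genes.

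Among the 23 members with at least 100 reads over both SC libraries, 22 lost more than 2-fold with run-off and 0 gained more than 2-fold, where 91% of 2567 genes lost and 4.48% gained. In retina 18 of 21 lost and 0 gained, where 94.7% of 2250 genes lost and 0.222% gained. Losses thus took 95.7% of these members in SC and 85.7% in retina. Scaled to library totals instead (CPM, counts scaled to a common library size), 16 of 23 lost and 2 gained in SC (background 67.4% and 16.5%), and 9 of 21 lost and 6 gained in retina (background 38.7% and 28.4%).

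The 5 members with the most reads in SC without run-off were Eef1b2, Eif5, Eef2, Eif1a and Eef1a1. Eef1b2 went from 1196 to 223 reads (18.6% left, exact 95% interval 16.1 to 21.5), Eef2 from 944 to 111 (11.8% left, 9.57 to 14.3) and Eef1a1 from 659 to 97 (14.7% left, 11.8 to 18.2). Of these 3 elongation factor genes, Eef1b2 and Eef1a1 kept a share above the 10.7% of the library, whereas the interval of Eef2 included it. Eef1d, Eef1g and Eef2k went from 109, 115 and 136 reads to 0. Eif1a went from 924 to 46 reads (4.98% left, 3.62 to 6.70).

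Eif5, the GTPase-activating protein of eIF2, went from 966 reads to 0, at least 322-fold lower at a floor of 3 reads. In the adult Cre-positive SC libraries with FPKM, Eif5 was at 0.346 and 0 FPKM. Eif3i went from 472 to 0 (at least 157-fold), Eif2d from 461 to 0 (at least 154-fold), Eif3h from 356 to 0 (at least 119-fold), Eif4a2 from 335 to 0 (at least 112-fold) and Eif3m from 295 to 0 (at least 98.3-fold). Eif4h went from 649 to 2 reads (0.308% left, 0.0372 to 1.12), and Eif3f from 291 to 3 (1.03% left, 0.211 to 3.04). The other members that lost more than 2-fold in SC were Eif1, Eif2ak1, Eif3a, Eif3c, Eif4enif1 and Eif5a, with 98 to 230 reads without run-off and 0 to 8 with it. In all, 18 of the 40 members with a read in either SC library had none left with run-off, and 52.9% of all genes with a read had none left.

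Reads were more numerous with run-off for some members in SC. Eif4g1 had 73 reads without and 133 with run-off (182%, 136 to 246), and Eif4ebp2, below the minimum of 100 reads, had 16 and 76 (475%, 275 to 873). Eif4a1 was just past the 2-fold limit among the 22 that lost reads, with 107 and 51 (47.7% left, 33.5 to 67.1).

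In retina the most abundant member was Eif1a, with 3690 reads without and 325 with run-off (8.81% left, 7.84 to 9.87). Eif4g2, a scaffold used without eIF4E, went from 1286 to 66 reads (5.13% left, 3.95 to 6.58), Eef1a1 from 864 to 43 (4.98% left, 3.58 to 6.76), Eif5a from 404 to 65 (16.1% left, 12.2 to 21.0) and Eif4h from 402 to 10 (2.49% left, 1.18 to 4.62). Eif6 went from 300 to 0 reads, at least 100-fold lower, and Eif5a2 from 223 to 0, at least 74.3-fold lower. The other members that lost more than 2-fold in retina were Eef1b2, Eef2, Eif1, Eif1ad, Eif2ak4, Eif3g, Eif3i, Eif4a1, Eif4a2, Eif4b and Eif5, with 102 to 400 reads without run-off and 0 to 61 with it.

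The 3 retina members above the minimum that did not lose 2-fold were Eif3f with 70 and 79 reads (113%, 80.8 to 158), Eif4g3 with 151 and 109 (72.2% left, 55.9 to 93.0) and Eif3c with 138 and 73 (52.9% left, 39.3 to 70.8). Eif3f thus had as many reads with run-off in retina and 1.03% of them in SC, and Eif4g1, with more reads in SC, kept 38.2% in retina (34 and 13 reads, 18.5 to 74.3). With 1 library a condition, differences between the tissues of this kind rest on 4 libraries.

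**Figure D5:**
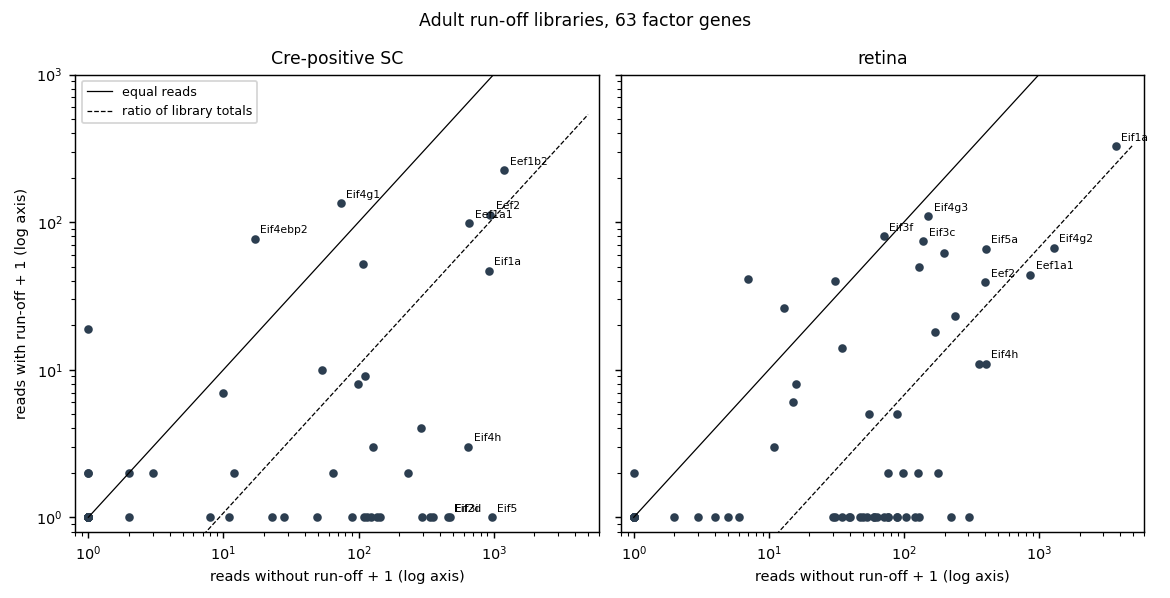
Reads of the 63 members without run-off (horizontal) and with run-off (vertical), plus 1 read, on log axes, in adult Cre-positive SC and retina. The solid line marks equal reads and the dashed line the ratio of the library totals, 10.7% in SC and 6.72% in retina. In SC, Eif5, Eif2d and Eif3i lie on the floor of 0 reads, and Eif4g1 and Eif4ebp2 lie above the solid line.

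Some members had reads in the adult run-off libraries although they were listed at 0 FPKM in all 24 other libraries. Without run-off, Eif5a2 had 88 reads in SC and 223 in retina, Eif2ak4 had 0 and 102, and Eif2ak2 had 0 and 2. Eif4e, without run-off, had 0 reads in SC and 49 in retina, and Eef1a2, Eif2ak3, Eif4e1b and Eif4ebp3 had no read in any of the 4 libraries. A count of 0 in the SC library without run-off allows up to 0.919 CPM.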

How the data were processed

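The 24 TRAP libraries hold FPKM that the authors made with TopHat2 2.0.12 on mm10 and Cufflinks 2.2.1, and the 4 run-off libraries hold read counts that the authors deposited from HTSeq 0.6.1p1, without normalization. RNA was amplified by oligo-dT PCR, with added rounds for SC. The fits left out 4 genes with a missing entry in an FPKM file; none is a member.

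FPKM were tested with limma 3.58.1 in R 4.3.3 on log2(FPKM + 1), with trend and robust moderation, for genes that reached 1 FPKM in 2 or more fitted libraries. The 16 SC libraries, the 8 retina libraries and all 24 were fitted separately. Tests were two-sided, with Benjamini-Hochberg adjustment over every gene tested, with a threshold of 0.05. Because folds are on the log2(FPKM + 1) scale, they understate changes of low genes. Replicates were separate libraries from pooled tissue, and no source says that they came from independent litters, so p-values measure the spread between these libraries. Depth was estimated from FPKM times length of single-transcript genes (GENCODE M21). Run-off used exact 95% intervals (scipy 1.17.1) and a floor of 3 reads.

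Named were the 10 members with the smallest p past the threshold in each comparison, members fixed by role, the 5 most abundant members and those called in run-off, and members at 0 throughout. Further genes named for a level or pattern were chosen after their values were seen. Members and lists were chosen with earlier results of these data known. Alternatives were other pseudocounts (0.1 and 5), no filter, median-ratio scaling, plain limma, a replicate block, single-stage fits and leaving out libraries, and, added after seeing the data, leaving out the 2 retina libraries poor in genes or the 4 adult SC libraries. The fit was tested on simulated data. Paralogues such as Eif1 and Eif1b, Eif4a1 and Eif4a2, Eif3j1 and Eif3j2, and genes with many processed copies such as Eef1a1, may share reads.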

Additional observations from a re-analysis of the deposited data

Results flagged for a closer look

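The stage change of a member differed between Cre-positive and Cre-negative SC, by the interaction term of limma at an adjusted p below 0.05, in the following cases. From E17.5 to P0.5 the change in Cre-positive SC exceeded that in Cre-negative SC, on the log2 scale, by 2.55 for Eef1d, 3.81 for Eif2b5, 4.72 for Eif3c, 4.17 for Eif3e, 4.14 for Eif3f, 7.52 for Eif3m, 5.03 for Eif4a2, 2.57 for Eif4b, 2.56 for Eif4e and 6.15 for Eif6. From P0.5 to P7.5 the difference of changes was -2.33 for Eef1d, -4.03 for Eif1b, -4.24 for Eif2b5, -3.23 for Eif3c, -5.05 for Eif3f, -6.34 for Eif3m, -2.08 for Eif4b, -3.26 for Eif4e and -6.13 for Eif6. Both sets rest on the same 4 SC libraries of P0.5. In the first set, Eif4a2 changed by 1.18 ± 0.87 in Cre-positive and -3.85 ± 0.87 in Cre-negative SC, and Eif3e by 2.54 ± 0.88 and -1.62 ± 0.88. The rise in Cre-positive SC did not pass for either gene (limma adjusted p = 0.39 and 0.0561). Eef1d, Eif3f, Eif4b, Eif4e and Eif6 passed the filter on low values only through the P0.5 Cre-positive libraries, so that their differences were fixed in part by the filter. Between the perinatal and the later stages it was -3.08 for Eif1b, -2.91 for Eif3f, -2.16 for Eif4e and -3.33 for Eif6, and the count of 4 fell to 0 without either Cre-positive library of P0.5.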

How the results depend on the processing

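Of 1158 counts of members recomputed under an alternative, 1054 stayed within 1.5 times the count reported and 104 moved; of 2318 differences of single members none reversed, and 400 lost their call. With a pseudocount of 5, the members lower from E17.5 to P0.5 in Cre-negative SC numbered 0 and the negative interactions between perinatal and later stages 2. With a pseudocount of 0.1, 5 members were higher in axons than in retina at P0.5. Same-numbered Cre-positive and Cre-negative libraries deviated together before adulthood (correlations over genes of 0.417 for E17.5, 0.426 for P0.5 and 0.324 for P7.5) but not in adults (0.0595), and the labels name no shared litter; with the replicate block, 1 member was lower from P0.5 to P7.5 and 2 between perinatal and later stages in Cre-negative SC, and 17 were higher in Cre-positive SC at P0.5. In retina, the 1 member lower between perinatal and later stages became 0 with no filter, with median-ratio scaling, with plain limma and without the 2 libraries poor in genes, where 1 was higher instead. Without those 2 libraries, the members lower in axons than in retina numbered 1 for E17.5, 1 for P0.5 and 3 for both P7.5 and adult, and with no filter 1 for P0.5. Median-ratio scaling moved the median retina change of all genes from -0.50 to -0.12 (E17.5 to P0.5), from 0.32 to 0.03 (P0.5 to P7.5) and from 0.06 to -0.06 (perinatal to later), and the median interaction from E17.5 to P0.5 from 1.59 to 1.48. In run-off, members losing reads numbered 6 in SC and 3 in retina at a minimum of 500 reads, 40 in retina at 20 reads and 9 in retina by CPM; members gaining reads numbered 2 in SC and 6 in retina by CPM, and 1 and 2 at 20 reads. The cause of these shifts was not tested, except that another minimum changes how many genes are counted.

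Leaving out 1 library at a time, Cre-positive against Cre-negative SC gave 0 to 1 members higher and 0 to 4 lower at E17.5, 7 to 14 higher at P0.5, 0 to 1 in each direction in the adult, and 0 to 5 higher and 0 to 1 lower over all stages. From E17.5 to P0.5, 3 to 13 were higher in Cre-positive SC, 0 to 2 higher and 0 to 4 lower in Cre-negative SC, and 2 to 11 had a positive interaction. From P0.5 to P7.5, 5 to 19 were lower in Cre-positive SC, 0 to 2 in Cre-negative SC, and 1 to 12 had a negative interaction. From P7.5 to adult, 0 to 1 were higher in each SC source. Between perinatal and later stages, 2 to 20 were lower in Cre-positive SC, 0 to 1 higher and 0 to 5 lower in Cre-negative SC, 0 to 1 had a positive and 0 to 6 a negative interaction, and 0 to 2 were lower in retina. Axons against retina gave 0 to 1 in each direction at E17.5, 4 to 15 higher at P0.5 and 0 to 2 higher in the adult. Leaving a group with 1 library assumes that it varies like the others. Depth limits the adult SC libraries and replicate 1 of E17.5 Cre-negative SC most.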
